A study of Mus musculus with 24 samples.

Results

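The OTX2 and PAX7 fragments were 6 of the 62 barcoded versions of the bacterial fragment FR1 in the Hi-TransMet pools. They were chosen by name, as every construct named for OTX2 or Pax7 with a wild-type (WT) or scrambled (Sc) motif. This gave 1 pair for OTX2 and 2 pairs for PAX7 (pair 1 and pair 2) among 31 WT and Sc pairs, beside 1 fragment without a motif. The choice used no measured value.

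OTX2 is a homeodomain transcription factor of the bicoid type, known for its part in the exit of embryonic stem cells from naive pluripotency and in the formation of the forebrain and midbrain. PAX7 carries a paired domain and a homeodomain, binds DNA through either, and is known from dorsal neural tube, neural crest and muscle stem cells, and as a pioneer factor in the pituitary. A pioneer factor binds its motif in closed chromatin, and in Hi-TransMet its effect on DNA methylation is read as Δmet, the CpG methylation around the WT motif minus that around the Sc motif.

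FR1 was inserted at a single targeted site, each cell carrying 1 construct, in mouse embryonic stem cells (ESCs; strain C57BL/6 X 129S5) and in ESCs lacking TET1, TET2 and TET3 (TET TKO; C57BL/6 X 129/sv), the enzymes that oxidise methylcytosine. Fragments were unmethylated before insertion (−SssI) or methylated in vitro at CpGs by M.SssI (+SssI). ESCs were also differentiated into neuronal progenitors (NPs) through cell aggregates and retinoic acid. The 5 pools were ESCs −SssI, ESCs +SssI, NPs −SssI, NPs +SssI and TET TKO ESCs +SssI, with 1 pool of each. Biological and technical replicates had been pooled, and since the numbered runs are not said to be of either kind, they were not used as replicates. ESCs, TET TKO ESCs and NPs each had 3 RNA libraries, with 20519702 to 23976914 counts in ESCs and NPs and 80704741 to 93210102 in TET TKO ESCs.

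Each fragment was read in an upstream amplicon with 18 CpGs, at −291 to −32 bp from the 5′ end of the motif, and a downstream amplicon with 5 CpGs, at 37 to 252 bp. A further CpG inside the motif, at position 1, was read in both fragments of PAX7 pair 1, but no in-motif CpG was read for OTX2 or PAX7 pair 2. The CpGs of the 6 fragments had 11 to 785 reads in ESCs −SssI, 57 to 1596 in ESCs +SssI, 59 to 859 in NPs −SssI, 174 to 1584 in NPs +SssI and 20 to 261 in TET TKO ESCs. The intervals given are 95% intervals of counting error alone, at the median read number of each fragment, and they cover neither cells nor transfections.

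The runs of a pool did not hold the same fragments and did not have the same level of methylation. In ESCs −SssI, the upstream methylation of the Sc fragments averaged 75.9% in run 1 (20 fragments), 75.9% in run 5 (21 fragments) and 36.4% in run 4 (25 fragments). In ESCs +SssI it was 73.9% in run 5 and 47.8% in run 4. WT minus Sc is therefore given over the whole pool and, where a run held at least 10 reads of both fragments, within that run. Runs 1 and 5 of ESCs −SssI, runs 2, 9 and 10 of NPs −SssI and runs 2 and 9 of NPs +SssI also shared out their reads among fragments without a difference beyond sampling noise (chi-square p of 0.0658 to 0.999), so that they may not be independent of each other.

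The OTX2 fragment with the WT motif was the less methylated of its pair in ESCs −SssI. Its mean over 23 CpGs was 27.5% (median of 221 reads) against 64.2% with the Sc motif (518 reads), a Δmet of −36.7 points (95% interval −43.9 to −29.5). Against all Sc fragments of the same runs it was −10.3 ± 5.89 points. The fragment without a motif stood at 59.0%, and the 31 Sc fragments ranged from 19.7% to 81.3% with a median of 57.8%. The OTX2 WT fragment ranked 9 from the lowest of 62 fragments, and its Δmet 8 from the lowest of 31 pairs. The median Δmet of all pairs was −6.15 points.

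Methylation at the single CpGs was compared by two-sided Fisher's exact tests adjusted by Benjamini-Hochberg across every CpG tested in the 31 pairs, and a CpG was called at a difference of at least 10 points and an adjusted p under 0.05. For OTX2 in ESCs −SssI, 21 of 23 CpGs were called lower (91.3%) and 0 higher, where 43.9% of the 722 CpGs of all pairs were called lower and 28% higher. The exceptions were the CpG at −211, with 22.3% in WT and 31.0% in Sc, and that at 151, with 11.9% and 5.56%. The called CpGs formed 2 hypomethylated regions (HMRs), which are at least 3 consecutive CpGs called lower over more than 50 bp. The first held 5 CpGs from −291 to −235, with a mean difference of −39.5 points. The second held 15 CpGs from −208 to 109 and thus lay on both sides of the motif, with a mean difference of −40.7 points. Of all 31 pairs, 15 had at least 1 HMR.

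The CpGs at 37 and 46 bp, nearest to the OTX2 motif on its downstream side, were almost free of methylation in WT. At 37 bp, 1 of 41 WT reads was methylated (2.44%) against 53 of 75 Sc reads (70.7%), with an adjusted Fisher's exact p of 2.06e-13. At 46 bp the values were 2.38% and 32.0%, and at 109 bp 19.0% and 87.8%. Over the 30 Sc fragments read there, methylation ran from 0% to 86.7% at 37 bp (mean of 42.1%) and from 0% to 94.1% at 46 bp (40.8%). Values this low were thus also seen with Sc motifs. Run 4, where Sc fragments were low, gave 86.1% of the downstream WT reads. On the upstream side the CpG at −32 stood at 40.9% in WT and 61.4% in Sc, and the lowest WT value there was 1.81% at −208.

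The pooled Δmet of OTX2 in ESCs −SssI set WT and Sc reads from largely different runs against each other. Upstream WT reads came from run 4 (32.1% methylated, median of 172 reads), run 6 (no methylated call at any of 18 CpGs, with only 24 to 26 reads each) and run 7 (49.5%, 23 reads). Upstream Sc reads came from run 4 (45.3%, 138 reads) and from runs 1, 5 and 2 (74.8%, 73.3% and 66.6%). Only run 4 held both. Within it Δmet was −13.3 ± 10.8 points upstream, with WT lower at 15 of 18 CpGs, and −38.3 ± 17.6 points downstream, with WT lower at 4 of 5. Over all 23 CpGs of run 4 it was −18.7 ± 10.8 points. Against all Sc fragments of run 4, the WT fragment was 4.28 points lower upstream and 23.8 points lower downstream.

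In ESCs +SssI the OTX2 WT fragment was again the less methylated of its pair over the whole pool, at 54.5% (845 reads) against 66.3% (766 reads). Δmet was −11.8 points (−16.6 to −7.09), close to the median of −11.9 over all 31 pairs, among which it ranked 17 from the lowest. Of the 23 CpGs, 16 were called lower (69.6%, against 48.3% of 714 CpGs over all pairs) and 2 higher (8.70%, against 13.6%). The 2 HMRs lay upstream, with 6 CpGs from −291 to −211 (mean difference of −17.0 points) and 7 CpGs from −121 to −32 (−18.9 points). Of all 31 pairs of this pool, 19 had at least 1 HMR. Downstream, Δmet was 2.83 points, the CpG at 37 bp stood at 42.6% and 49.0%, and the 2 CpGs called higher were those at 151 and 252 bp. Without run 5 or without run 7, 0 CpGs were called lower, though without run 7 only downstream CpGs kept at least 10 WT reads. With a difference of at least 20 points 0 HMRs were formed.

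No upstream run of ESCs +SssI held both OTX2 fragments. All upstream WT values rested on run 7 (54.1%, median of 845.5 reads), and the Sc values on run 4 (33.8%, 53 reads) and run 5 (72.6%, 714.5 reads). Run 5 held both downstream, with 12 WT reads at 98.2% and 423 Sc reads at 56.2%, a difference of 42.0 ± 8.92 points. Without run 5, whose Sc reads were the larger part, the pooled Δmet was 18.4 points, and without run 7 it was 45.6 points on the downstream CpGs. The direction of Δmet of OTX2 in ESCs +SssI thus changed with the runs included.

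In NPs −SssI the OTX2 pair could be compared within the same runs. Over the pool WT stood at 81.6% (289 reads) and Sc at 90.7% (852 reads), a Δmet of −9.06 points (−13.9 to −4.19), rank 9 from the lowest of 31 pairs around a median of −2.36. The difference lay upstream, at −11.5 points, while downstream it was −0.131 points. Within runs 2, 9 and 10 the upstream difference was −11.0005 ± 7.31, −10.7 ± 9.12 and −11.5 ± 9.12 points, but these were the runs that shared out their reads alike. Against all Sc fragments of the same run, WT was lower by 10.04, 10.1 and 10.8 points, while Sc was higher by 0.669 to 0.9999 points.

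The lower methylation of OTX2 WT in NPs −SssI was uneven along the fragment. Of the 23 CpGs, 10 were called lower (43.5%, against 30.4% of 727 CpGs over all pairs) and 0 higher (15.7% over all pairs). The pair formed 0 HMRs, in a pool where 10 of 31 pairs had at least 1. The largest difference was at −211, where 130 of 291 WT reads were methylated (44.7%) against 88.8% of 856 Sc reads. The CpG at 46 bp was called lower downstream, at 80.0% against 93.8%, while that at 37 bp stood at 91.5% and 84.7%.

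In NPs +SssI the OTX2 fragments did not differ beyond the counting interval. WT stood at 85.0% (273 reads) and Sc at 84.1% (1039 reads), with a Δmet of 0.922 points (−3.86 to 5.71). Of the 23 CpGs, 0 were called lower (36.6% of 714 CpGs over all pairs) and 1 higher, that at −291 (9.66% over all pairs). A further 11 CpGs had an adjusted p under 0.05 but differed by less than 10 points, among them those at −211 (69.6% and 77.9%) and 109 bp (84.0% and 88.3%). The only run with at least 10 reads of WT was run 7, where Sc of this pair had fewer. Against the Sc fragments of other motifs in run 7, WT was 1.88 points lower upstream and 10.9 points lower downstream.

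In TET TKO ESCs +SssI the order of the OTX2 pair was turned round, with WT the more methylated fragment. Tet1, Tet2 and Tet3 were first looked at in the RNA of these cells. Tet1 had 20009 to 25373 counts in ESCs and 14731 to 17281 in the deeper TET TKO libraries, a log2 fold change of −2.28 ± 0.14 (SE), and Tet2 fell by 2.94 ± 0.13 on the log2 scale (edgeR's quasi-likelihood test with Benjamini-Hochberg adjustment, adjusted p = 8.67e-05 and 1.74e-05). Tet3 was under 1 RPKM in every library of both groups. The counts cover all exons of a gene, and which exons the alleles lack is not given in the sources used here.

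OTX2 WT stood at 91.2% (186 reads) and Sc at 70.1% (98 reads) in TET TKO ESCs, a Δmet of 21.0 points (11.1 to 31.0) and rank 29 from the lowest of 31 pairs around a median of 1.18. Of the 23 CpGs, 18 were called higher (78.3%, against 22.4% of 732 CpGs over all pairs) and 0 lower (19.9% over all pairs). The Sc fragment was the one that stood apart. Its upstream methylation of 64.3% was the lowest among the 31 Sc fragments, which averaged 88.1%, while WT stood at 89.2%. Against the mean of all Sc fragments, Δmet of OTX2 WT was 2.54 ± 4.26 points. Without run 10 the pair's Δmet was 9.43 points, over the downstream CpGs.

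The upstream levels of several fragments in TET TKO ESCs fell into few steps. For OTX2 Sc, 14 of 18 CpGs stood between 56.3% and 60.2% and the other 4 between 82.7% and 83.7%. For PAX7 pair 1 WT all 18 CpGs stood between 77.0% and 79.4%, and for PAX7 pair 2 Sc 15 of 18 stood between 63.6% and 72.7%, on a median of 22 reads. Run 10 was the only upstream run with at least 10 reads of these fragments. Downstream, where 2 or 3 runs had reads, OTX2 WT and Sc within runs 10 and 11 differed by −0.211 ± 3.05 and −2.43 ± 5.82 points.

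The PAX7 fragments with the WT motif were more methylated than their Sc fragments in ESCs −SssI. For pair 1, WT stood at 75.7% (704.5 reads) and Sc at 69.7% (760.5 reads), a Δmet of 6.01 points (1.46 to 10.6). For pair 2, only the 18 upstream CpGs had at least 10 WT reads, and there WT stood at 87.4% (523 reads) and Sc at 61.8% (434 reads), a Δmet of 25.7 points (20.3 to 31.1). PAX7 pair 2 WT was the most methylated of the 62 fragments of this pool, and pair 1 WT ranked 57 from the lowest. Pair 1 had 7 of 24 CpGs called higher (29.2%) and 2 lower, and pair 2 had 16 of 18 called higher (88.9%) and 0 lower, beside 28% called higher and 43.9% lower over all pairs. Neither pair had an HMR. Pair 1 depended on the runs included, with a Δmet of 5.22 ± 6.60 points without run 1, 5.45 ± 5.93 without run 5, 1.89 ± 4.45 without run 6 and 13.0 without run 4.

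Upstream, the higher methylation of PAX7 WT in ESCs −SssI was also seen within most runs. For pair 1, WT minus Sc was 12.4 ± 5.05 points in run 1, 11.3 ± 5.77 in run 5, 13.9 ± 20.9 in run 2 and −0.0102 ± 20.6 in run 4. For pair 2 it was 16.9 ± 7.31 points in run 1, 20.8 ± 8.93 in run 5 and 9.41 ± 30.1 in run 2. Runs 1 and 5 were those with alike read shares. Against all Sc fragments of the same run, PAX7 pair 1 WT was higher by 12.3 to 17.5 points in its 4 runs, run 4 included, and pair 2 WT by 9.15 to 11.96 points in its 3 runs. The Sc fragment of pair 1 lay between 1.69 points below and 18.3 points above the other Sc fragments in these 4 runs. That of pair 2 lay from 10.3 points below to 0.706 points above in runs 1, 2, 4 and 5.

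Downstream of the pair 1 motif the order was the opposite in ESCs −SssI. WT stood at 31.0% and Sc at 45.9% over 5 CpGs, a difference of −14.9 points that rested on a median of 62 WT and 21 Sc reads. The CpGs at 151 and 252 bp were called lower, with 2 of 60 WT reads methylated at 151 bp (3.33%) against 6 of 18 Sc reads (33.3%). The mean over the 30 Sc fragments read at 151 bp was 21.8%, the lowest of the 23 CpGs outside the motif. The CpG inside the motif of pair 1 was methylated in 543 of 769 WT reads (70.6%) and in 493 of 785 Sc reads (62.8%).

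The 2 PAX7 pairs went in opposite directions in ESCs +SssI. For pair 1, WT stood at 68.5% (1125 reads) and Sc at 58.7% (72 reads), a Δmet of 9.79 points that its interval did not separate from 0 (−1.90 to 21.5). For pair 2, WT stood at 56.7% (129 reads) and Sc at 82.8% (106 reads), a Δmet of −26.1 points (−37.3 to −14.9). Between the pairs Δmet differed by 35.9 ± 16.2 points. Pair 1 had 11 of 24 CpGs called higher (45.8%) and 1 lower, while pair 2 had 18 of 23 called lower (78.3%) and 0 higher, beside 48.3% lower and 13.6% higher over all pairs. Pair 2 formed an HMR of 12 CpGs from −187 to 37, with a mean difference of −33.2 points, in a pool where 19 of 31 pairs had an HMR. Its 18 CpGs called lower became 8 without run 4 and 9 against the fragment without a motif. Without run 5, 2 were called lower, but only the 5 downstream CpGs then kept at least 10 Sc reads. Its CpG at 37 bp was methylated in 46 of 189 WT reads (24.3%) and 76 of 84 Sc reads (90.5%).

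Neither direction in ESCs +SssI rested on evenly shared runs. PAX7 pair 1 Sc was read in run 4 only, and there WT was at 33.8% (41 reads) and Sc at 62.7% (73 reads) upstream, a difference of −28.9 ± 18.2 points against the 10.007 points of the pool. Downstream in run 4 the pair differed by 0.280 ± 17.3 points. For pair 2, upstream WT reads came from run 4 (29.4%) and run 6 (75.2%), and Sc reads from run 5 (82.7%). Without run 4, Δmet of pair 2 was −11.9 points, within its interval of ± 12.2, and without run 6 it was −45.7 points. Pair 2 Sc was the most methylated of the 62 fragments of this pool, and against all Sc fragments of the same runs Δmet of pair 2 WT was −5.79 ± 8.55 points.

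In NPs both PAX7 pairs were highly methylated, and none of the 4 values of Δmet passed its interval. Under −SssI, pair 1 stood at 93.2% in WT and 92.0% in Sc (Δmet of 1.14 ± 3.95 points), and pair 2 at 87.4% and 87.1% (0.251 ± 7.59 points). Under +SssI, pair 1 stood at 85.8% and 89.6% (−3.84 ± 4.32 points), and pair 2 at 90.3% and 91.8% (−1.58 ± 4.82 points). Between the pairs Δmet differed by 0.884 ± 8.56 points under −SssI and −2.26 ± 6.47 points under +SssI. The widest of the 4 intervals, that of pair 2 under −SssI, ran from −7.34 to 7.84 points.

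At single CpGs the PAX7 pairs in NPs differed in their number of calls. Under −SssI, 2 of 24 CpGs of pair 1 were called lower (8.33%) and 1 higher, while pair 2 had 7 of 23 called lower (30.4%) and 7 higher (30.4%), beside 30.4% lower and 15.7% higher over all pairs. Under +SssI, 6 of 24 CpGs of pair 1 (25%) and 2 of 23 of pair 2 (8.70%) were called lower, beside 36.6% over all pairs. Called higher were 1 of pair 1 (4.17%) and 2 of pair 2 (8.70%), beside 9.66% over all pairs. Pair 1 under +SssI formed an HMR of 3 CpGs just downstream of the motif, from 37 to 109 bp. Its mean difference was −16.1 points, and it was not formed with a difference of at least 20 points or with at least 5 CpGs. Of all 31 pairs of this pool, 15 had at least 1 HMR. At 37 bp, 822 of 1034 WT reads (79.5%) and 242 of 254 Sc reads (95.3%) were methylated. Within the 3 runs that held both fragments, however, the downstream difference was −0.381 ± 11.97, 4.30 ± 16.8 and 3.89 ± 14.8 points.

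Pair 2 of PAX7 was lower in WT than in Sc downstream of the motif wherever the same run held both. The difference over the 5 downstream CpGs was −52.4 ± 14.2 points in run 4 of ESCs +SssI. It was −17.9 ± 10.95 and −20.3 ± 25.9 points in runs 8 and 11 of NPs −SssI. In runs 9, 10 and 11 of TET TKO ESCs it was −1.72 ± 3.56, −13.1 ± 7.37 and −12.3 ± 6.31 points. In 2 of these 6 runs the interval included 0. Sc stood at 100% in run 8 of NPs −SssI (11 reads) and run 11 of TET TKO ESCs (35 reads). There the interval holds no counting error of Sc and is too narrow, so whether it would include 0 is not settled. The Sc fragment stood at 83.9% to 100%, which was above the other Sc fragments in 5 of the 6 runs, by 6.82 to 32.6 points, and 3.56 points below them in run 11 of NPs −SssI. The WT fragment lay below the Sc fragments of the same run in 5 of 6, by 1.53 to 23.6 points, and 4.85 points above them in run 9 of TET TKO ESCs. Upstream within the same runs the difference was 61.1 ± 28.0 and −9.86 ± 6.89 points in runs 8 and 11 of NPs −SssI and 30.2 ± 19.6 points in run 10 of TET TKO ESCs. The upstream part was thus lower in WT in 1 of these 3 runs. The interval of that run holds no Sc error either, with Sc at 100% on 23 reads. In NPs +SssI no run held both fragments of pair 2.

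In TET TKO ESCs +SssI the PAX7 pairs stood in different orders. Pair 1 was at 82.4% in WT (126 reads) and 88.6% in Sc (63 reads), a Δmet of −6.22 ± 10.3 points. Pair 2 was at 96.7% (89 reads) and 75.2% (22 reads), a Δmet of 21.5 ± 18.4 points and rank 30 from the lowest of 31 pairs. Of the 24 CpGs of pair 1, 9 were called lower (37.5%) and 2 higher. Of the 23 of pair 2, 16 were called higher (69.6%), all of them upstream, and 3 lower, all of them downstream, beside 19.9% lower and 22.4% higher over all pairs. With at least 50 reads required, only the 5 downstream CpGs of pair 2 remained and Δmet was −10.1 points. Without run 10, which left no upstream CpG to compare, Δmet was 1.48 points for pair 1 and −8.28 points for pair 2.

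Set side by side, Δmet of OTX2 was −36.7 points in ESCs −SssI, −11.8 in ESCs +SssI, −9.06 in NPs −SssI, 0.922 in NPs +SssI and 21.0 in TET TKO ESCs. The comparisons share pools, so they are not independent of each other. Between NPs and ESCs −SssI, Δmet of OTX2 differed by 27.6 ± 8.69 points, with WT higher by 54.1 ± 7.39 points and Sc by 26.5 ± 4.57 points in NPs. Within runs that held both fragments, Δmet was −18.7 ± 10.9 points in ESCs and −8.70 ± 5.01 points in NPs, and these intervals overlapped. Between NPs and ESCs +SssI it differed by 12.7 ± 6.74 points, with 30.5 ± 5.41 points in WT and 17.7 ± 4.02 in Sc. Between TET TKO and ESCs +SssI it differed by 32.9 ± 11.01 points, with WT higher by 36.7 ± 5.28 points and Sc by 3.81 ± 9.66. Per the study's methods, reads were filtered by their non-CG methylation, but not in the TET TKO libraries. The TET TKO and ESC +SssI pools also share no run number. Strain, TET genotype, this filter and the runs cannot be told apart in this comparison.

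Premethylation was compared within each cell type. In ESCs, Δmet of OTX2 under +SssI minus −SssI was 24.9 ± 8.61 points. WT was higher by 27.0 ± 6.78 points under +SssI and Sc by 2.13 ± 5.31 points. For PAX7 the same difference was 3.78 ± 12.5 points for pair 1 and −49.8 ± 12.4 points for pair 2 over its 18 shared CpGs. In NPs it was 9.98 ± 6.83 points for OTX2, −4.98 ± 5.86 for PAX7 pair 1 and −1.83 ± 8.99 for pair 2. In ESCs, 99.8% of upstream OTX2 WT reads came from run 7 under +SssI and 77.6% from run 4 under −SssI. Leaving out single runs moved Δmet of OTX2 in ESCs +SssI between −14.7 and 45.6 points. The part of the runs in these differences was not tested.

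For PAX7, the difference between NPs and ESCs varied with the pair and the premethylation. Under −SssI, pair 1 WT was 17.5 ± 3.92 points higher in NPs and Sc 22.3 ± 4.58 points, so that Δmet differed by −4.87 ± 6.03 points. For pair 2, WT differed by 2.52 ± 6.47 points and Sc by 24.8 ± 6.12 points, and Δmet by −22.3 ± 8.91 points. Under +SssI, Δmet in NPs minus ESCs was −13.6 ± 12.5 points for pair 1 and 24.5 ± 12.2 points for pair 2, which had opposite signs. TET TKO minus ESCs gave −16.0 ± 15.6 and 47.6 ± 21.5 points.

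The genes of both factors were expressed in opposite cell types. Otx2 (ENSMUSG00000021848; GRCm38 chromosome 14, 48657679 to 48667644, minus strand) had 943, 846 and 1195 counts in the 3 ESC libraries and 19, 15 and 23 in the 3 NP libraries. Per length this was 12.9 ± 1.46 RPKM in ESCs and 0.245 ± 0.0572 in NPs (mean ± SD, n = 3 libraries each). The groups did not overlap, and Otx2 was lower in NPs by 52.5-fold (log2 fold change of −5.71 ± 0.24 SE, edgeR quasi-likelihood adjusted p = 7.95e-07).

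Pax7 (ENSMUSG00000028736; chromosome 4, 139737062 to 139833528, minus strand) had 21, 18 and 20 counts in ESCs and 1534, 516 and 899 in NPs. This was 0.149 ± 0.0166 RPKM in ESCs and 7.51 ± 4.40 in NPs. Every NP library was above every ESC library, though the NP libraries themselves ranged from 3.62 to 12.3 RPKM. Pax7 was higher in NPs by 50.2-fold (log2 fold change of 5.65 ± 0.50 SE, edgeR adjusted p = 2.54e-05). Genes were called at an adjusted p under 0.001 and a fold of at least 3, which 9.98% of 15197 genes passed as lower and 12.4% as higher in NPs.

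In TET TKO ESCs, Otx2 had 1884, 969 and 436 counts, or 7.19, 3.995 and 1.49 RPKM. All 3 were below the ESC libraries (11.4 to 14.3 RPKM), but their spread was wide and the log2 fold change of −1.62 ± 0.48 SE did not pass the limits (edgeR adjusted p = 0.0335), which 1.21% of 13939 genes passed as lower and 1.1% as higher. Pax7 had 28, 13 and 53 counts, at most 0.105 RPKM, and was not tested, being under the expression filter of 1 RPKM. Otx2 passed the limits in DESeq2 (log2 fold change of −1.74, adjusted p = 0.000407).

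Other factors with related DNA-binding domains were looked at by a list of 7 OTX, PITX and other bicoid-type homeodomain genes and a list of the 9 Pax genes. Of the 7 bicoid-type genes, 3 passed the filter for NPs against ESCs. Of these, 1 fell in NPs, Otx2 itself, and 1 rose, Pitx1, known from hindlimb and pituitary development. Over all tested genes, 9.98% were called lower and 12.4% higher. Otx2 was under 1 RPKM in every NP library and Pitx1 in every ESC library, so the filter largely set the direction of both. Pitx1 was higher in NPs (0.0281 RPKM in ESCs, 11.01, 1.46 and 3.04 RPKM in the NP libraries, log2 fold change of 7.43 ± 1.09 SE, edgeR adjusted p = 0.000415), a call lost without any 1 ESC library or without NP library 3. Otx1, Crx and Gsc stayed under 1 RPKM in every library.

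Of the 9 Pax genes, 6 reached 1 RPKM and 5 of these rose in NPs, where 12.4% of all tested genes were called higher. The call of Pax5 was lost without ESC library 1 or 2 or NP library 1 or 3. Pax2, Pax3, Pax5, Pax6 and Pax7 were under 1 RPKM in every ESC library and passed the expression filter through NPs alone. The filter thus largely set their direction, so their count cannot be weighed against the share over all tested genes. Pax3, the closest relative of Pax7 and a gene of the dorsal neural tube and neural crest, rose from 0.0125 to 9.44 RPKM. Pax6, a regulator of neural progenitors, rose from 0.350 to 14.7 RPKM. Pax2 rose from 0.182 to 7.41 RPKM and Pax5 from 0.234 to 2.39 RPKM, both known from the midbrain-hindbrain boundary. Pax8 was at 0.840 RPKM in ESCs and 2.39 in NPs and did not pass (edgeR adjusted p = 0.0341). For TET TKO ESCs against ESCs 0 of the 9 passed the filter, though Pax8 stood at 0.729 to 1.02 RPKM in ESCs when all 9 libraries were normalised together. The summed level of the list was 0.591 to 0.806 RPKM, against 1.66 to 2.09 in ESCs and 36.9 to 47.8 in NPs.

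Cell type markers went with the labels for the most part. In NPs 6 of 6 ESC markers fell, their summed level dropping from between 1450 and 1481 RPKM in ESCs to between 4.93 and 8.93, and all 5 tested NP markers rose (Pax6, Nes, Sox1, Neurog2 and Hes5). Of 5 endoderm markers, Gata6, Sox17 and Foxa2 rose in NPs too. The summed level of all 5 was 18.7 to 22.9 RPKM in NPs against 1.07 to 1.83 in ESCs. Apart from Nes, the NP and endoderm markers that rose were under 1 RPKM in every ESC library, so the expression filter largely set their direction. Of 4 neuron markers Dcx and Map2 rose and Stmn2 fell, and 0 of 4 fibroblast markers passed in either direction. Dcx and Map2 were also under 1 RPKM in every ESC library, and the ESC markers Esrrb and Tdgf1 in every NP library. The filter largely set the direction of these genes too. In bulk RNA, fewer cells of a type and less RNA per cell cannot be told apart, and the part of these other cells in the levels of Otx2 and Pax7 was not tested.

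Levels of RNA and Δmet can be set side by side for the factors. In ESCs, where Otx2 was at 12.9 RPKM, Δmet of its motif was −36.7 points under −SssI (−18.7 within the shared run) and −11.8 under +SssI (42.0 within the shared run, downstream alone), and in NPs, where Otx2 was at 0.245 RPKM, it was −9.06 and 0.922 points. Where Pax7 was at 7.51 RPKM, in NPs, Δmet lay between −3.84 and 1.14 points, and where it was at 0.149 RPKM, in ESCs, between −26.1 and 25.7 points. In TET TKO ESCs +SssI, with Otx2 at 4.22 RPKM, Δmet of its motif was 21.0 points. Pax7 was at 0.0660 RPKM there, with a Δmet of −6.22 points for pair 1 and 21.5 for pair 2. A link between RNA level and Δmet was not tested.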

How the data were processed

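Bisulfite amplicons of the barcoded FR1 fragments were sequenced, and the authors trimmed reads and called CpGs with Bismark (0.20.0, per the labels). For each construct and CpG the deposited tables give, run by run, the counts of all reads and of those called methylated. The 2 samples of ESCs −SssI share 1 table, as do the 2 of NPs +SssI, so each was taken as 1 pool. The authors' percent column was not used, and percentages were recomputed from the counts summed over runs. A CpG needed at least 10 reads in both fragments of a pair, within −300 to 260 bp of the motif. Δmet was the mean of WT minus Sc over the shared CpGs. Its 95% interval came from the normal approximation at the median read numbers. It covers counting error only. Per the study's methods, reads carried molecular identifiers and PCR duplicates were removed by them. Reads were also filtered there by their non-CG methylation, except in the TET TKO libraries.

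WT and Sc were compared per CpG by two-sided Fisher's exact tests (scipy 1.17.1, pandas 2.3.3, Python 3.11.15), with Benjamini-Hochberg adjustment over all pairs of a pool. The study used DSS for this step, which was not used here. The authors pooled biological and technical replicates, and which numbered run is of which kind is not given in the sources used here, so runs did not serve as replicates and the test compares pooled reads. All 31 Sc fragments served as the reference group, where 26 had been planned. Runs were taken as alike where a chi-square test of reads per fragment gave a p over 0.05.

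For RNA, the deposited counts per gene came from STAR (2.6.1b) and featureCounts (1.6.2, unstranded, Ensembl 89, GRCm38), per the file headers and labels. Reads of antisense or overlapping genes cannot be told apart in them. Genes with at least 1 RPKM in at least 1 library of a comparison were tested by edgeR's quasi-likelihood test (4.0.16, R 4.3.3) with TMM factors, on the libraries of the 2 groups compared. Genes were called at an adjusted p under 0.001 and a fold of at least 3. RPKM values were normalised over all 9 libraries. The labels do not say whether replicates were separate cultures, so p-values measure the spread between these samples. Both steps were tested on simulated data.

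The members and gene lists were chosen with earlier results of these data known. Named were all OTX2 and Pax7 fragments, Otx2 and Pax7, and those genes of the lists that reached 1 RPKM, with the others counted. Some listed genes are not reported here. Alternatives were other read minimums, other references, values within runs, leaving out each run or library, DESeq2 (1.42.0), no filter on low counts, library sizes alone and a replicate block. Counting alike runs once, and the Sc fragments of the same runs as reference, were added after seeing the data. The motif sequences were not used here.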

Additional observations from a re-analysis of the deposited data

Results flagged for a closer look

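Δmet of a pair differed between pools by more than the counting error of both in 11 of 15 comparisons. The share over all pairs was not computed, so this count cannot be read as particular to OTX2 and PAX7. Each pool was a single one, several comparisons share a pool, and the part of the differing runs in these differences was not tested. For OTX2, Δmet differed by 24.9 ± 8.61 points between ESCs +SssI and −SssI and by 9.98 ± 6.83 points between NPs +SssI and −SssI. It differed by 27.6 ± 8.69 points between NPs and ESCs −SssI, by 12.7 ± 6.74 points between NPs and ESCs +SssI, and by 32.9 ± 11.01 points between TET TKO and ESCs +SssI. In all 5 the first pool named had the higher Δmet.

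For PAX7 pair 1, Δmet differed by −13.6 ± 12.5 points between NPs and ESCs +SssI and by −16.0 ± 15.6 points between TET TKO and ESCs +SssI. For PAX7 pair 2 it differed by −49.8 ± 12.4 points between ESCs +SssI and −SssI, and by −22.3 ± 8.91 points between NPs and ESCs −SssI. The pair 2 differences were 24.5 ± 12.2 points between NPs and ESCs +SssI and 47.6 ± 21.5 points between TET TKO and ESCs +SssI. Both PAX7 pairs passed their interval in the last 2 contrasts, with opposite signs.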

How the results depend on the processing

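Of 242 values of Δmet under other settings, 203 kept their direction and their side of the interval, 23 reversed, 11 fell inside the interval and 5 passed it. Counting alike runs once, a minimum of 1 or 20 reads and leaving out the CpG inside the motif changed none of the 15 values each. Within runs that held both fragments, Δmet was 0.840 for PAX7 pair 1 in ESCs −SssI, 42.0 for OTX2 and −22.3 for PAX7 pair 1 in ESCs +SssI, and 2.25 for PAX7 pair 1 in NPs +SssI. OTX2 and PAX7 pair 2 in NPs +SssI had no such run.

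Against the fragment without a motif, Δmet was −6.54 for PAX7 pair 2 in ESCs +SssI, −3.62 for it in NPs −SssI, −2.65 for OTX2 and 2.63 for PAX7 pair 2 in NPs +SssI, and 1.85 for OTX2 in TET TKO ESCs. Against the mean of all Sc fragments it was 5.43 for PAX7 pair 1 and −0.378 for pair 2 in NPs −SssI, −1.75 for OTX2 and 3.52 for PAX7 pair 2 in NPs +SssI, and 2.54 for OTX2 in TET TKO ESCs. Against the Sc fragments of the same runs it was −0.0176 for PAX7 pair 1 and −5.79 for pair 2 in ESCs +SssI, 4.09 and −1.44 in NPs −SssI, and 1.80 and 3.90 in NPs +SssI. There it was −4.42 for OTX2 in NPs +SssI, and 1.86 for OTX2 and −6.94 for PAX7 pair 1 in TET TKO ESCs. With at least 50 reads, PAX7 pair 2 in TET TKO ESCs stood at −10.1. As a share of all methylated calls it stood at 5.08, and PAX7 pair 1 in NPs +SssI at −6.33. The causes were not tested. Of 197 counts of CpGs called lower 31 moved by over 1.5 times, and of 45 counts of HMRs 10 did. In ESCs +SssI the 16 CpGs of OTX2 called lower became 0 without run 5 or run 7, and the 18 of PAX7 pair 2 became 8 without run 4 and 2 without run 5. For OTX2 without run 7 and PAX7 pair 2 without run 5, only downstream CpGs could still be tested. The 2 HMRs of OTX2 there became 0 at a difference of at least 20 points and 1 with counts summed over CpGs within 50 bp.

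Leaving out each run gave these ranges. In ESCs −SssI they were −50.4 to −32.1 for OTX2, 1.89 to 13.0 for PAX7 pair 1 (5.22 without run 1, 5.45 without run 5, 1.89 without run 6, 13.0 without run 4) and 18.2 to 34.0 for pair 2. In ESCs +SssI they were −14.7 to 45.6 for OTX2 (18.4 without run 5, 45.6 without run 7), 3.44 to 9.88 for PAX7 pair 1 (lowest without run 5) and −45.7 to −11.9 for pair 2 (without runs 6 and 4). In NPs −SssI they were −11.8 to −8.89, −1.14 to 2.00 (lowest without run 11) and −3.70 to 1.44 (lowest without run 8). In NPs +SssI they were −1.25 to 2.58 (lowest without run 8), −4.41 to −1.95 and −5.81 to 3.88 (without runs 8 and 1). In TET TKO ESCs they were 9.43 to 21.9, −6.90 to 1.48 and −8.28 to 21.8, where 9.43, 1.48 and −8.28 were without run 10.

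For NPs against ESCs, edgeR called 3408 genes, 5281 with no filter, 3898 with DESeq2 and 2464 to 3413 without 1 library. For TET TKO ESCs, 322 genes were called, 1263 with no filter, 910 with DESeq2 and 50 to 329 without 1 library (50, 59 and 74 without ESC 1, 2 and 3, 126 and 190 without TET TKO 1 and 2). With a replicate block the counts were 3415 and 674. Deviations of same-numbered libraries correlated at −0.158 to 0.0150 for NPs and −0.0964 to 0.364 for TET TKO ESCs, so the numbers were not taken as pairs. Pitx1 in NPs lost its call without ESC 1, 2 or 3 or NP 3, and Pax5 without ESC 1 or 2 or NP 1 or 3. Otx2 in TET TKO ESCs was called with DESeq2 and with no filter.

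The intervals for methylation hold counting error alone, while levels differed between runs by more than that (Sc fragments upstream at 75.9% in run 1 and 36.4% in run 4 of ESCs −SssI), and fragments with few reads (22 for PAX7 pair 2 Sc in TET TKO ESCs) allow only wide intervals.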
